A study of Labrus bergylta with 77 samples.

Results

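Sampling stage BW6 covers ballan wrasse (Labrus bergylta) larvae at 58 to 59 days post hatch (dph), just after weaning, and 12 of the 77 pools of the series were sampled there. They were taken as all pools whose labels give the stage BW6, and they come from 6 tanks with 2 pools each. Tanks B5, B7 and B9 had received zooplankton as live feed and tanks B6, B8 and B10 the control diet of rotifers and Artemia. All 6 tanks were stocked at 4 dph with larvae hatched from eggs of a brood stock of 30 females and 6 males. Every tank was given formulated dry feed beside its live feed from 40 dph, and dry feed alone from 56 dph. At sampling the larvae of all tanks were therefore on the same feed, and the tanks differed by what had been fed before. Each pool is RNA of whole larvae, so a level sums over all organs, and fewer cells of a type and less RNA per cell cannot be told apart. Standard length was 16.0, 16.4 and 16.5 mm in the plankton tanks B5, B7 and B9 and 16.2, 16.5 and 16.3 mm in the control tanks B6, B8 and B10. The question was which genes still differed between the tanks of the earlier diets once the feed was shared.

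Marine fish larvae digest with enzymes that the acinar cells of the exocrine pancreas release into the gut. The proteases among them are made as inactive precursors, and in the gut trypsin activates the other proteases. Weaning is the change from moving live prey to dry particles, and it asks larvae to accept, break down and absorb a new kind of feed. Food intake acts on several organs: the liver turns absorbed amino acids, sugars and fats into plasma proteins and stores, and growing tissues enter the cell cycle when nutrients suffice. The thymus, where T cells assemble their antigen receptors with the recombinases Rag1 and Rag2, forms during the larval period in this group of fishes.

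Levels are given in TPM, the transcript abundance per length of transcript scaled to a fixed sum per library, as the mean of a tank's 2 pools. A difference is plankton minus control on the log2(TPM + 1) scale with its standard error, from a limma fit. In it each tank is 1 library, and 3 plankton tanks stand against 3 control tanks. The spread behind the standard error and p is estimated from 41 libraries of all stages, not from the BW6 tanks alone. Genes are called where the p, adjusted by Benjamini and Hochberg's method across 22028 genes, is below 0.05. The read depth behind these values is unknown. Pools held 18112 to 19641 genes with at least 1 TPM, and the 50 highest genes took 37.4% to 45.7% of the TPM. The plankton tank B9 stood apart. Its 2 pools had the lowest correlation with each other of any tank (0.967) and the lowest share in the 50 highest genes. The second pool of B9 correlated on average at 0.9683 with its own diet and at 0.9684 with the control pools. Pools of B5 and B7 correlated with the control pools at 0.9708 to 0.9736. B9 and the control tank B10 were sampled at 59 dph and the other 4 tanks at 58 dph, so each diet had 1 tank at the later day. Markers of organs of a whole larva were found in all 6 tanks, from 80900 to 99300 TPM summed over 11 genes of striated muscle to 15.5 to 42.3 TPM summed over 5 thymocyte genes. The glucagon gene gcg was listed at 0 in every BW6 tank.

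Of the 22028 genes tested at BW6, 177 (0.804%) were called, 114 higher and 63 lower in plankton tanks. Among them 73 were higher and 37 lower by at least 2-fold on this scale. The tanks of the earlier diets did not overlap in 163 of the 177, against 12.4% of all genes tested. The calls were made on the same tanks, so this separation follows largely from the call and adds no support to it. The median difference over all genes tested was 0.03, and 56.6% of them had a positive difference. In a fit of the 6 BW6 libraries alone, which leaves few degrees of freedom, 4 genes were called, all 4 among the 177. Before adjustment 1667 reached p below 0.05, more than a share of 0.05 of the genes tested. Fewer genes passed without some tanks, 97 without B8 and 112 without B7, and 104 passed with the 4 tanks of 58 dph alone, of which 78 were among the 177. Without the second pool of B9, 352 passed, 175 higher and 177 lower. That pool was left out for its likeness to the control pools, so a rise in the count without it adds no support.

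The digestive enzymes of the exocrine pancreas made up the largest group of called genes among the 37 gene lists examined. Of 47 tested genes of this list, 27 were higher in plankton tanks and none lower, where 0.518% of all genes tested were called higher. The list's median difference was 1.61. Its summed level was 1.36%, 1.72% and 2.46% of all TPM in the plankton tanks B5, B7 and B9, and 0.70%, 0.486% and 0.583% in the control tanks B6, B8 and B10. Every plankton tank lay above every control tank. Within tanks the pools of B6 differed most, at 0.253% and 1.15% of the TPM, and pools of the other tanks lay between 0.47% and 2.61%. Single pools therefore came closer than tanks: in 16 of the 27 called genes all 6 plankton pools lay above all 6 control pools. The pools of the diets were separate in 63 of all 177 called genes. These genes were called on the same pools, and the share over all genes tested was not taken.

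**Figure D1:**
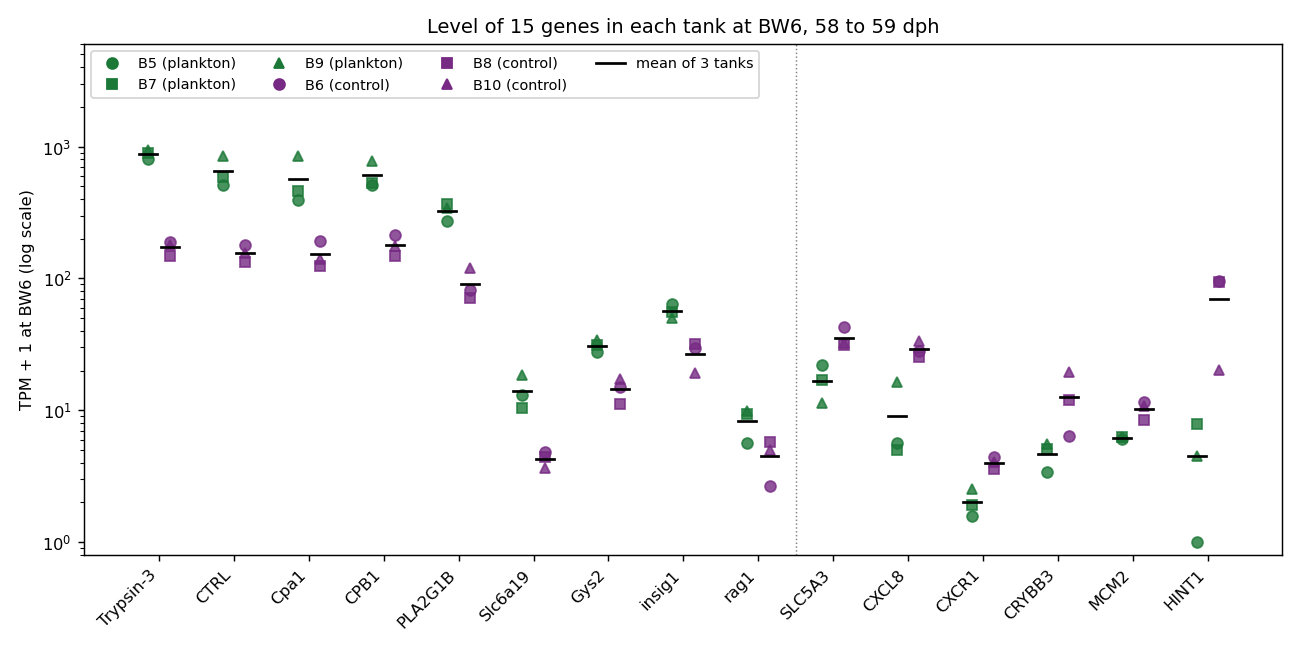
Level of 15 genes in each tank at BW6, as TPM + 1 on a log axis. Points are tanks (mean of 2 pools, 3 tanks per diet), black lines are means of 3 tanks, and the dotted line separates genes higher from genes lower in plankton tanks. For Trypsin-3 (Fragment) the plankton tanks sit at 803 to 939 TPM and the control tanks at 147 to 187 TPM.

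All classes of pancreatic enzyme were represented. Trypsin, which cuts proteins after basic residues, was called in 6 of 13 tested copies. Trypsin-3 (Fragment) (LABE_00023352) was at 803, 899 and 939 TPM in plankton tanks and at 187, 147 and 179 TPM in control tanks, a difference of 2.53 ± 0.24 (adjusted p = 1.73e-07). This was the gene with the smallest p at BW6, and its tanks fell into separate, narrow ranges. Trypsin-1 (LABE_00047848), the most abundant copy, was at 2790, 3910 and 5210 TPM against 1450, 1030 and 1180 TPM (1.82 ± 0.25, adjusted p = 6.02e-05). Prss1 (LABE_00047847) was at 79.8, 142 and 292 TPM against 70.9, 46.1 and 61.2 TPM (1.51 ± 0.37, adjusted p = 0.0379), with B5 close to the control tank B6. This last call was lost on leaving out any tank but B5. Copies of trypsin, elastase and the crystallins below are so alike that reads may have been split between them in ways not given in the sources used here, so the share of each copy is uncertain.

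All 4 chymotrypsin-type genes were higher. CTRL (LABE_00023322) was at 510, 588 and 850 TPM in plankton tanks and at 178, 133 and 154 TPM in control tanks (2.21 ± 0.27, adjusted p = 1.23e-05). CTRC (LABE_00039923) was at 58.1, 66.1 and 65.3 TPM against 20.6, 16.8 and 17.0 TPM (1.87 ± 0.27). Of 8 elastase genes 6 were higher, such as CELA2A (LABE_00039922) at 886, 1230 and 1850 TPM against 477, 303 and 373 TPM (1.90 ± 0.26). CELA2A (LABE_00061614) was carried by B9, at 261 TPM beside 56.2 and 65.7 TPM in B5 and B7, and lost its call without that tank. The copy Cela2a (LABE_00010357) stood the other way at 1.36, 4.86 and 8.93 TPM against 4.79, 12.6 and 33.2 TPM (-1.57 ± 0.42, adjusted p = 0.0778) and did not pass the test. The 3 carboxypeptidases, which trim residues from the carboxyl end, were all higher. Cpa1 (LABE_00022927) was at 394, 460 and 850 TPM against 191, 123 and 140 TPM (2.06 ± 0.25) and CPB1 (LABE_00061599) at 507, 533 and 772 TPM against 211, 146 and 174 TPM (1.96 ± 0.23).

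Enzymes for fat and starch moved with the proteases. Of 7 lipase genes 5 were higher. The phospholipase PLA2G1B (LABE_00009956) was at 270, 363 and 343 TPM in plankton tanks and at 80.6, 70.5 and 118 TPM in control tanks (2.07 ± 0.30, adjusted p = 0.0001). CEL (LABE_00046980), the bile salt-activated lipase, was at 47.8, 59.1 and 125 TPM against 29.5, 15.2 and 17.0 TPM (2.04 ± 0.35). The starch-cutting enzyme Pancreatic alpha-amylase (LABE_00000698) was at 110, 121 and 349 TPM against 73.6, 40.0 and 43.9 TPM (1.94 ± 0.31). Of the 6 tested copies of acinar transcription factors (ptf1a, RBPJL, Bhlha15 and NR5A2) none was called, and their differences ran from 0.08 to 0.68. None of the 68 genes of the secretory pathway and protein folding list was called either, with a median of -0.07. As 0.804% of all genes tested were called, groups of these sizes would hold few or no calls at that share.

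Of the 27 calls 24 were kept whichever tank was left out, as were 59 of all 177. The number of pancreas genes called higher was 24 to 27 on leaving out a tank, 22 in the 4 tanks of 58 dph, and 2 in the fit of the BW6 libraries alone. With the first pool of each tank it was 29 and with the second 18, at list medians of 2.15 and 1.21. The list's median was 1.39 in the tanks of 58 dph and 1.94 for B9 minus B10 at 59 dph.

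**Figure D2:**
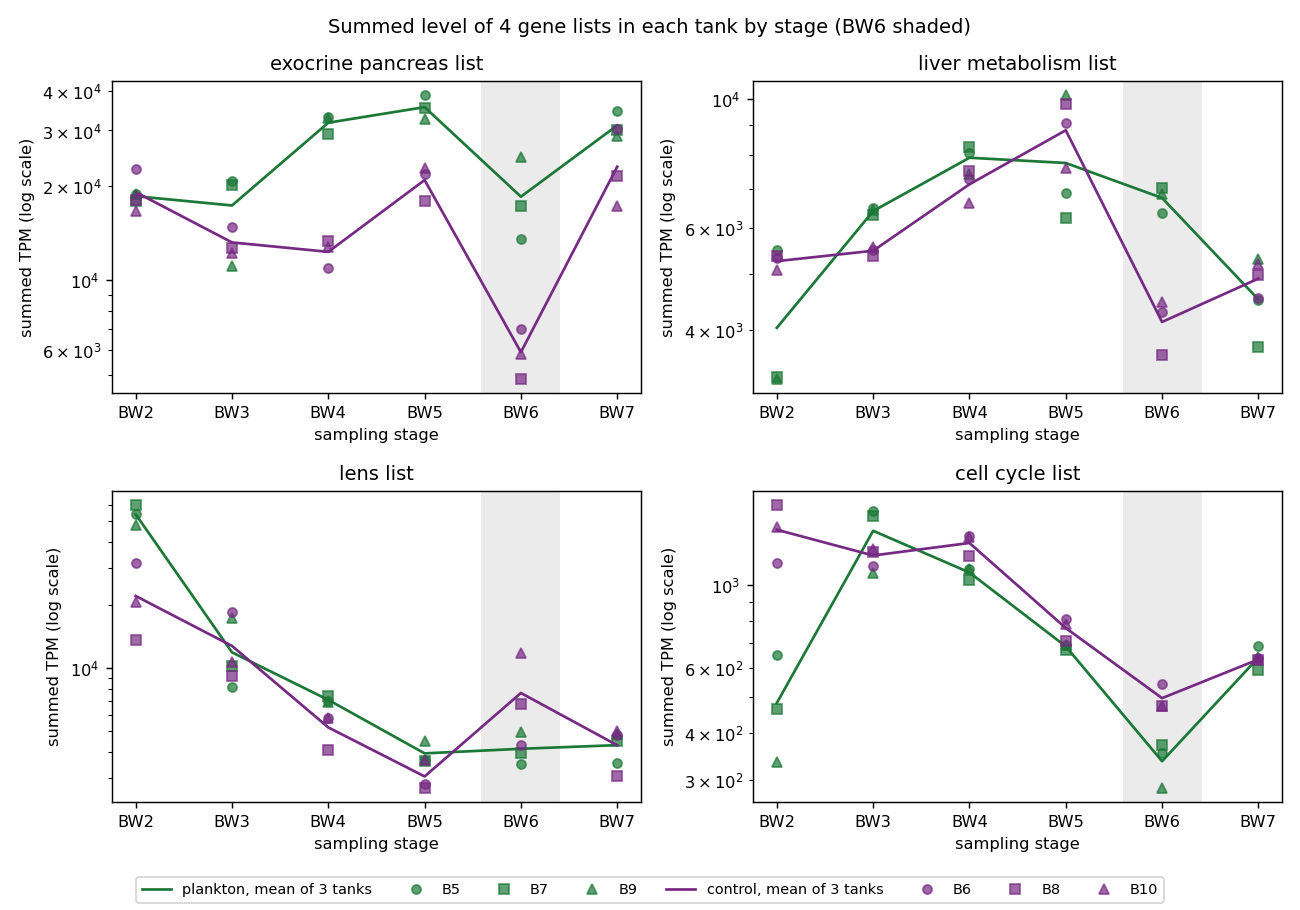
Summed TPM (log axis) of the exocrine pancreas, liver metabolism, lens and cell cycle lists by sampling stage, with BW6 shaded. Points are tanks and lines are means of 3 tanks of the plankton or control diet. The pancreas sum of every tank is lower at BW6 than at BW5, at 25.6% to 75.5% of it.

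BW6 was the low point of the pancreas list among the last 3 stages. At BW5 the list took 3.89%, 3.53% and 3.26% of the TPM in the plankton tanks and 2.18%, 1.79% and 2.28% in the control tanks. The plankton larvae of BW5 were older than the control larvae and had met dry feed. In comparisons with BW5, age, feed and earlier diet therefore cannot be told apart. The BW6 level was 34.9%, 48.6% and 75.5% of the BW5 level in B5, B7 and B9, and 32.1%, 27.1% and 25.6% of it in B6, B8 and B10. At BW7 the list stood at 3.45%, 3.00% and 2.89% of the TPM against 3.04%, 2.14% and 1.72%, so that B6 had passed B7 and B9. For the list's median, the diet difference at BW6 minus that at BW5 was 0.63, and the diet difference at BW7 minus that at BW6 was -1.20. Single genes passing these contrasts are given below.

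Liver genes were the second group with higher levels in plankton tanks. Of 37 tested genes of liver metabolism 11 were higher and none lower (median 0.62), and of 45 liver plasma proteins 6 were higher and none lower (median 0.64), beside the 0.518% of all genes tested. Across both lists 78 of 82 differences were positive. The glycogen synthase of liver, Gys2 (LABE_00037427), was at 26.5, 30.4 and 32.9 TPM in plankton tanks and at 14, 10.2 and 16.3 TPM in control tanks (1.21 ± 0.22, adjusted p = 0.00232). The aspartate aminotransferase GOT1 (LABE_00049092) was at 58.5, 74.0 and 84.9 TPM against 35.9, 37.7 and 45.1 TPM (0.89 ± 0.16, adjusted p = 0.00147). Qdpr (LABE_00044616), which regenerates the cofactor of phenylalanine breakdown, was at 81.6, 84.6 and 117 TPM against 57.9, 59.4 and 66.2 TPM (0.61 ± 0.12). For each of these genes the lowest plankton tank lay above the highest control tank.

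Other called enzymes of the list were Tat and HGD, which act in tyrosine breakdown, at 1.09 ± 0.26 and 0.59 ± 0.15, AGXT at 0.92 ± 0.19, a copy of bhmt (LABE_00042630), which remethylates homocysteine, at 1.20 ± 0.27, and the liver fatty acid-binding protein fabp10a at 1.0 ± 0.24. Among plasma proteins, ITIH3 (LABE_00050847) was at 10.1, 13.1 and 14.5 TPM against 6.75, 6.31 and 6.83 TPM (0.86 ± 0.16, adjusted p = 0.00237). SERPINC1, the thrombin inhibitor antithrombin, was at 21.1, 23.5 and 29.1 TPM against 15.3, 9.71 and 15.1 TPM (0.88 ± 0.18), and AHSG (LABE_00004059) at 239, 260 and 205 TPM against 152, 116 and 143 TPM (0.83 ± 0.19). The lipid carrier APOC1 (LABE_00047830) was at 2230, 2840 and 2250 TPM against 1460, 1060 and 1800 TPM (0.83 ± 0.20, adjusted p = 0.0337), and APOA1 (LABE_00047835), at 111, 196 and 157 TPM against 177, 82.7 and 112 TPM, was not called. In the complement list C5 was called higher among 29 genes, beside 0.518% of all genes tested (0.95 ± 0.23, adjusted p = 0.0399), a call lost without any of the 6 tanks.

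Across the 2 liver lists 17 of 82 genes were called higher. That number was 4 without B8, 6 without B7, 7 without B9, 9 without B6, 4 in the tanks of 58 dph and 1 with the second pool of each tank. The median for plasma proteins was 0.78 in the tanks of 58 dph and 0.33 for B9 minus B10, and that for liver metabolism was 0.62 and 0.52. Of the liver genes named, Gys2, GOT1 and ITIH3 kept their call whichever tank was left out. Qdpr lost it without B9, AGXT without B7 or B8, SERPINC1 without B8 or B9, bhmt without B6, B7 or B8, and Tat, HGD, fabp10a, AHSG and APOC1 without any of 4 or 5 tanks.

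Fewer genes of the gut lining differed. Of 44 genes of intestinal digestion and absorption, Slc6a19 (LABE_00034449), which takes up neutral amino acids, was the only call, beside 0.518% of all genes tested called higher. It was at 12.1, 9.46 and 17.4 TPM in plankton tanks and at 3.80, 3.40 and 2.66 TPM in control tanks (1.62 ± 0.28, adjusted p = 0.00121), and the call was kept on leaving out any tank. The list's median was 0.01 in the tanks of 58 dph and 0.68 for B9 minus B10, where the median over all genes tested was -0.03 and 0.15. The list's summed level overlapped between the diets, at 1878, 2386 and 1953 TPM in B5, B7 and B9 and 2379, 1844 and 1314 TPM in B6, B8 and B10, with B10 the lowest tank. No gene of the mucosal barrier list was called among 19, where 0.804% of all genes tested were called.

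**Figure D3:**
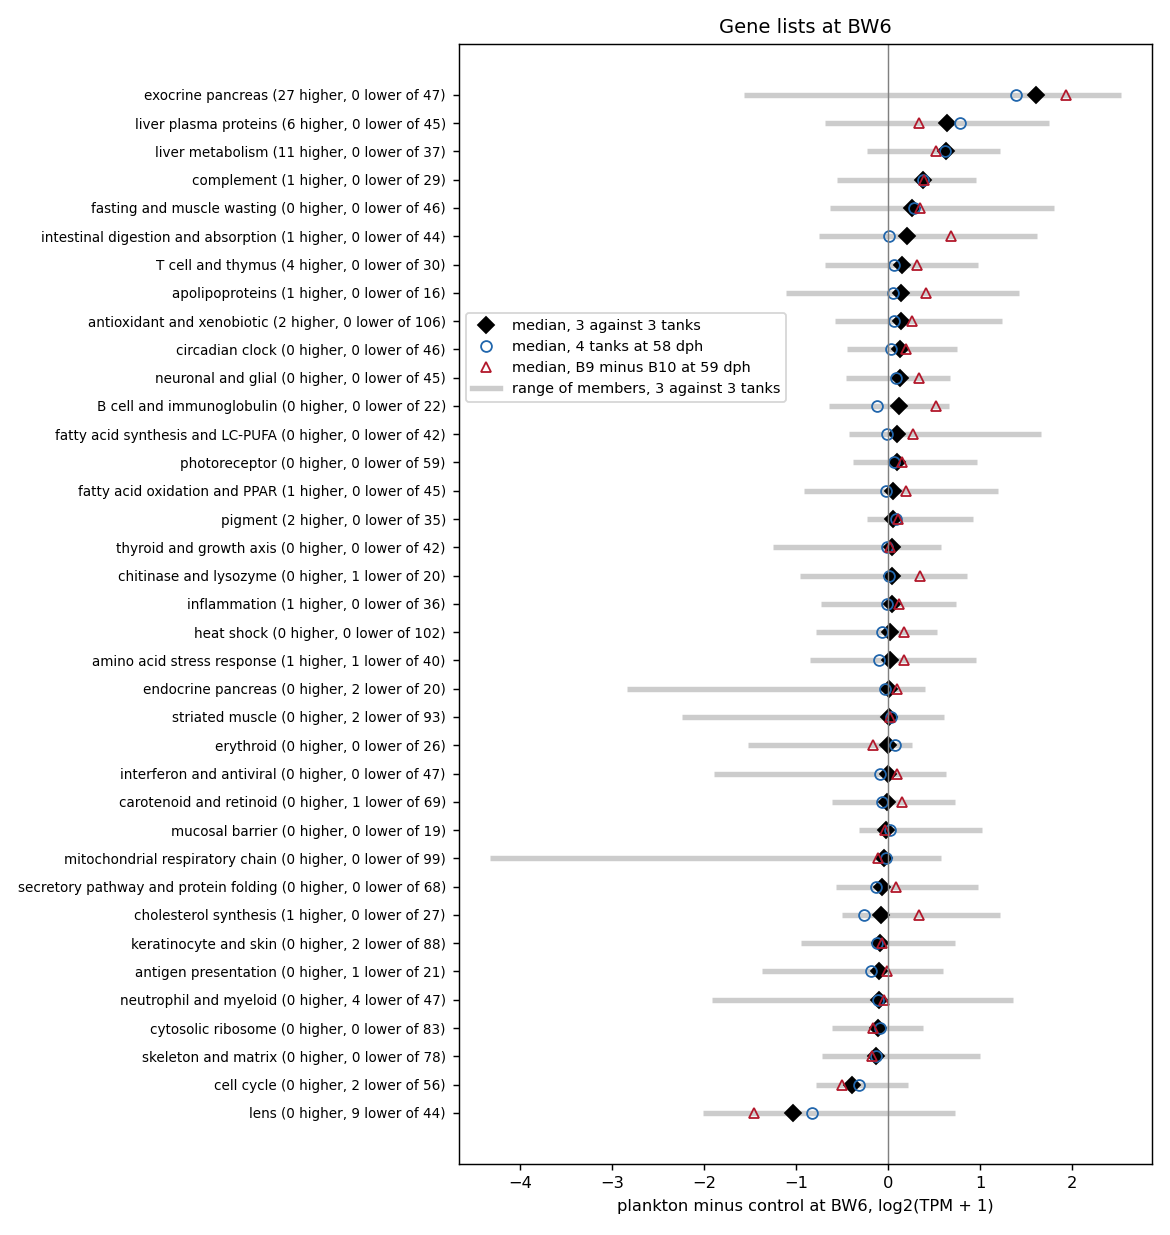
Plankton minus control at BW6, log2(TPM + 1), for 37 gene lists. Diamonds are medians over 3 against 3 tanks, open circles medians over the 4 tanks of 58 dph, open triangles medians for B9 minus B10 at 59 dph, and grey bars the range of members. The number of members called is given beside each name, and the exocrine pancreas lies at the upper end (1.61) and the lens at the lower end (-1.04).

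The lens list held the most genes called lower in plankton tanks. Of 44 tested genes of this list 9 were lower and none higher, where 0.286% of all genes tested were called lower, and the median was -1.04. The summed level was 3505, 3953 and 4946 TPM in B5, B7 and B9 and 4316, 6735 and 11800 TPM in B6, B8 and B10. The diets overlapped, since the control tank B6 lay among the plankton tanks, and the highest tank was B10. At BW5 the sum was 3670, 3620 and 4500 TPM in B5, B7 and B9 and 2820, 2680 and 3660 TPM in B6, B8 and B10. At BW7 it was 3530, 4490 and 4880 TPM against 4790, 3080 and 5020 TPM. The control tanks B8 and B10 thus stood higher at BW6 than at BW5 or BW7. At BW6 the diets' tanks did not overlap in 6 of the 44 genes, a share near the 12.4% of all genes tested. Gamma-crystallin M3 (LABE_00024029), a structural protein of the lens, was at 14.4, 24.7 and 28.1 TPM against 32.4, 63.5 and 134 TPM (-1.82 ± 0.35, adjusted p = 0.00405). CRYBB3 (LABE_00011168) was at 2.43, 4.07 and 4.53 TPM against 5.33, 10.9 and 18.4 TPM (-1.41 ± 0.26, adjusted p = 0.00225), and its call was kept on leaving out any tank. Its single pools overlapped, with those of B9 at 8.15 and 0.911 TPM and those of B6 at 5.37 and 5.29 TPM. The chaperone crystallin cryaa (LABE_00078757) was at 0.486, 1.86 and 3.61 TPM against 3.05, 9.99 and 15.6 TPM (-1.74 ± 0.36), with B9 above B6. Its call was lost without B5, B8 or B10, and that of Gamma-crystallin M3 without B5 or B10. The lens count was 1 without B10, 1 without B5, 2 without B8 and 17 without B6. It was 1 without the second pool of B9 and 1 in the tanks of 58 dph. With the first pool of each tank it was 16 and with the second 4, at list medians of -1.76 and -0.34.

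Most genes of the cell cycle list had small negative differences that did not pass the test singly. In this list 55 of 56 differences were negative, against 43.1% of all genes tested, and the median was -0.39. The list's summed level was 353, 371 and 284 TPM in plankton tanks and 543, 474 and 474 TPM in control tanks, with no overlap. The groups did not overlap in 30 of its 56 genes, beside 12.4% of all genes tested. Of the 56 genes 2 were called, beside 0.286% of all genes tested called lower. MCM2 (LABE_00061151), part of the helicase that opens DNA for replication, was at 5.01, 5.22 and 5.25 TPM against 10.5, 7.43 and 9.70 TPM (-0.79 ± 0.18, adjusted p = 0.0227). Single pools of MCM2 overlapped, since those of B9 were at 1.76 and 8.73 TPM beside 5.89 TPM in a pool of B8 and 7.31 TPM in a pool of B10. The ribonucleotide reductase subunit rrm2 (LABE_00069748) was at 36.3, 37.6 and 26.0 TPM against 59.6, 52.8 and 52.7 TPM (-0.75 ± 0.19, adjusted p = 0.0467). Both calls rested on the full set of tanks, with each lost in 5 of 6 fits that left out a tank. Without the second pool of B9, 9 genes of the list were called lower. As that pool was left out for its likeness to the control pools, this rise adds no support. The median was -0.32 in the tanks of 58 dph and -0.51 for B9 minus B10. Cytosolic ribosomal proteins had 76 of 83 negative differences with a median of -0.11 and no call, where 0.804% of all genes tested were called.

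A few genes of developing T cells, all at low levels, were higher in plankton tanks. Of 30 genes of the T cell and thymus list 4 were higher and none lower, beside 0.518% of all genes tested called higher. The recombinase gene rag1 (LABE_00002509) was at 4.67, 8.43 and 8.80 TPM in plankton tanks and at 1.66, 4.77 and 3.99 TPM in control tanks, with B5 below B8. Its partner rag2 (LABE_00002510) was at 2.38, 3.58 and 5.59 TPM against 1.38, 1.90 and 2.20 TPM. The T-cell receptor sequence Tcra was at 5.47, 10.2 and 7.13 TPM against 3.95, 2.65 and 3.36 TPM, and the receptor kinase ZAP70 at 1.30, 2.25 and 1.99 TPM against 0.777, 1.13 and 1.25 TPM. The median of the list was 0.15, its summed level was 554 to 572 TPM in plankton and 530 to 633 TPM in control tanks, and 10 of its differences were negative. No call of this list was left with a pseudocount of 0.1, without B7 or in the tanks of 58 dph, 1 was left without B6, without B9 or with the second pools, and 7 genes were called with a pseudocount of 5. No gene of the B cell and immunoglobulin list was called among 22, where 0.804% of all genes tested were called.

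Of 47 genes of the neutrophil and myeloid list 4 were lower in plankton tanks and none higher, beside 0.286% of all genes tested called lower. In the list as a whole 18 differences were positive and 29 negative, where 43.1% of all genes tested were negative, and the median was -0.10. Its summed level, which includes EPX below, was 1123, 1270 and 1190 TPM in plankton tanks against 1085, 1062 and 1140 TPM in control tanks. With a pseudocount of 0.1, 2 of its genes were called. The chemokine CXCL8 (LABE_00028950), which attracts neutrophils, was at 4.61, 3.98 and 15.5 TPM in plankton tanks and at 27.2, 24.5 and 32.5 TPM in control tanks (-1.91 ± 0.34, adjusted p = 0.00164). A chemokine receptor of neutrophils, CXCR1 (LABE_00021493), was at 0.586, 0.907 and 1.55 TPM against 3.40, 2.57 and 3.04 TPM (-1.04 ± 0.16, adjusted p = 0.000385). Both calls were kept on leaving out any tank. The other 4 tested copies named CXCL8 and the other 2 named CXCR1 were not called, with differences from -0.51 to 0.20. The collagenase MMP13 (LABE_00011345) was at 4.22, 3.25 and 2.68 TPM against 4.09, 10.0 and 17.0 TPM (-1.19 ± 0.28, adjusted p = 0.0316), with B6 inside the plankton range and the call lost without B7, B8, B9 or B10. The granulocyte peroxidase EPX (LABE_00008768) stood at 189, 268 and 238 TPM against 90.9, 91.8 and 72.3 TPM without passing the test (1.35 ± 0.40, adjusted p = 0.129). Of the genes outside this list CHIT1 (LABE_00070763), a chitinase, was at 1.18, 1.15 and 0.623 TPM against 3.40, 2.69 and 2.29 TPM (-0.95 ± 0.18, adjusted p = 0.00309). It was the only call among 20 tested genes of the chitinase and lysozyme list, beside 0.286% of all genes tested called lower. In that list 10 differences were positive and 10 negative, with a median of 0.04. Of 36 genes of the inflammation list IL17REL was called higher (0.72 ± 0.15), beside 0.518% of all genes tested, a call lost without B8 or B9.

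In the body wall, 2 of 88 skin genes were lower (median -0.09), beside 0.286% of all genes tested called lower. One of them, the laminin subunit LAMB3, was at 11.5, 9.44 and 7.73 TPM in plankton tanks against 14.5, 16.8 and 18.3 TPM in control tanks (-0.74 ± 0.17, adjusted p = 0.0193). Its tanks did not overlap, its call was lost without B7, B8, B9 or B10, and no skin gene was called with a pseudocount of 0.1. The protein is part of the layer that anchors the epidermis to the tissue beneath. Of 93 striated muscle genes 2 were lower, beside the same 0.286%, with a median of 0.01. None of 59 photoreceptor genes, of the same organ as the lens genes, was called, where 0.804% of all genes tested were called.

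Several of the genes with the steepest differences belong to none of these groups. L-rhamnose-binding lectin CSL2 (LABE_00059110), a carbohydrate-binding protein, was at 177, 198 and 232 TPM in plankton tanks and at 22.1, 18.4 and 6.91 TPM in control tanks (3.57 ± 0.74, adjusted p = 0.00906). The gene trp3 (LABE_00047826) was at 80.7, 103 and 124 TPM against 10.7, 9.03 and 4.05 TPM (3.42 ± 0.59, adjusted p = 0.0013). Type-4 ice-structuring protein LS-12 (LABE_00037098) was at 428, 582 and 227 TPM against 41.9, 12 and 83.8 TPM (2.79 ± 0.70, adjusted p = 0.0465). These differences exceeded that of any pancreatic enzyme, and the last of them lost its call without B5, B6, B7 or B8. For LS-12 the pools of B9 were at 15.9 and 437 TPM, beside 98.7 and 68.9 TPM in B10. On the log2 scale its B9 minus B10 was 0.05, and its difference in the tanks of 58 dph was 4.16. TRIAP1 (LABE_00076483) and ectD (LABE_00043377) were higher by 2.75 ± 0.64 and 2.43 ± 0.46. A copy of HINT1 (LABE_00047658), a nucleotide hydrolase, was at 0, 6.93 and 3.51 TPM in plankton tanks and at 94.1, 92.8 and 19.3 TPM in control tanks (-4.0 ± 0.73, adjusted p = 0.00216), the largest difference among called genes in either direction. HINT1 and trp3 kept their calls whichever tank was left out, CSL2 lost it without B10, ectD without B9, and TRIAP1 without any tank but B10.

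Among other genes lower in plankton tanks, SLC5A3 (LABE_00048702), a transporter of myo-inositol, was at 21.0, 16.0 and 10.3 TPM against 42.0, 30.4 and 31.3 TPM (-1.12 ± 0.22, adjusted p = 0.00397). The epithelial growth factor EPGN (LABE_00036072) was at 22.1, 19.2 and 14.5 TPM against 33.9, 50.6 and 45.8 TPM (-1.24 ± 0.24). The cystine transporter Slc7a11 was at 6.48, 4.73 and 4.71 TPM against 8.90, 11.5 and 11.2 TPM (-0.85 ± 0.19). The scavenger receptor SCARB1 (LABE_00069339), which takes up lipids and carotenoids, was at 50.4, 45.8 and 54.5 TPM against 70.0, 68.8 and 76.6 TPM (-0.50 ± 0.12). In each the diets' tanks did not overlap, which for SLC5A3, EPGN and Slc7a11 was a condition of a rule that named them. The calls were lost without B9 for SLC5A3, without B8 or B9 for EPGN, without B7, B8, B9 or B10 for Slc7a11, and without any tank but B9 for SCARB1. Of 20 endocrine pancreas genes 2 were lower, both copies of the somatostatin gene sst1, beside 0.286% of all genes tested called lower. They were LABE_00070203 (-1.80 ± 0.42) and LABE_00070451 (-2.84 ± 0.55). In that list 10 differences were positive and 10 negative, with a median of 0.01. For the first copy B9 minus B10 was 0.10 on the log2 scale. Its single pools ran from 0.41 to 22.8 TPM in plankton and from 1.1 to 48 TPM in control tanks. The second copy was at 26.3, 3.32 and 10.2 TPM against 141, 24.3 and 305 TPM, so that B5 lay above B8. Its call was lost without B6 or B7 and that of the other copy without B5, B6, B7 or B8, and no copy of ins was called.

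The lists of fatty acid oxidation and cholesterol synthesis each held 1 call, where 0.518% of all genes tested were called higher. In fatty acid oxidation, ucp2 (LABE_00007048), a mitochondrial uncoupling protein, was at 127, 169 and 186 TPM in plankton tanks and at 62.1, 73.4 and 74.6 TPM in control tanks (1.20 ± 0.28, adjusted p = 0.0237). It was the only call among 45 tested genes of its list and was lost without any tank but B5. In cholesterol synthesis, insig1 (LABE_00051223), which restrains the pathway, was at 62.7, 55.1 and 49.3 TPM against 28.7, 30.6 and 18.3 TPM (1.21 ± 0.25, adjusted p = 0.00906), the only call among 27 tested genes of its list and one lost without B5 or B10. None of 46 genes of the fasting and muscle wasting list was called between the diets, where 0.804% of all genes tested were called. In this list 39 differences were positive, against 56.6% of all genes tested, and the median was 0.26. Several of its genes stood above neighbouring stages in both diets. FBXO32 (LABE_00001608), a ubiquitin ligase of muscle wasting, was at 130, 138 and 333 TPM against 17.6, 226 and 206 TPM, where its group means were 6.93 and 6.36 TPM at BW5 and 5.03 and 5.93 TPM at BW7. IGFBP1 (LABE_00001954), which binds insulin-like growth factors, was at 190, 163 and 134 TPM against 47.8, 57.2 and 53.7 TPM (1.81 ± 0.49, adjusted p = 0.081), beside means of 10.2 and 10.1 TPM at BW5. The steps between stages were not tested for these genes. The glutathione-degrading chac1 (LABE_00013226), at 70.3, 101 and 112 TPM against 191, 121 and 116 TPM, was not called.

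The diet difference at BW6 was set against that at BW5 to see which differences appeared, grew or shrank over weaning. At BW5 the plankton larvae were older than the control larvae and had met dry feed, so age, feed and earlier diet cannot be told apart in this contrast. It called 22 genes (0.0999% of those tested), 8 upward and 14 downward. An unadjusted p under 0.05 was reached by 913 genes, fewer than a share of 0.05 of the genes tested. With the tank as a block, 14 were called. Trypsin-3 (Fragment) was called, since its difference was larger at BW6 than at BW5 by 1.71 ± 0.34 (adjusted p = 0.0422). Its level was 2820 ± 248 TPM in plankton and 1600 ± 212 TPM in control tanks at BW5 (SD, n = 3) and 880 ± 70.2 against 171 ± 21.6 TPM at BW6. Slc6a19 rose in the same contrast (1.85 ± 0.39, adjusted p = 0.0461), from 1.90 ± 0.63 against 2.73 ± 2.16 TPM at BW5 to 13 ± 4.05 against 3.28 ± 0.58 TPM at BW6.

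**Figure D4:**
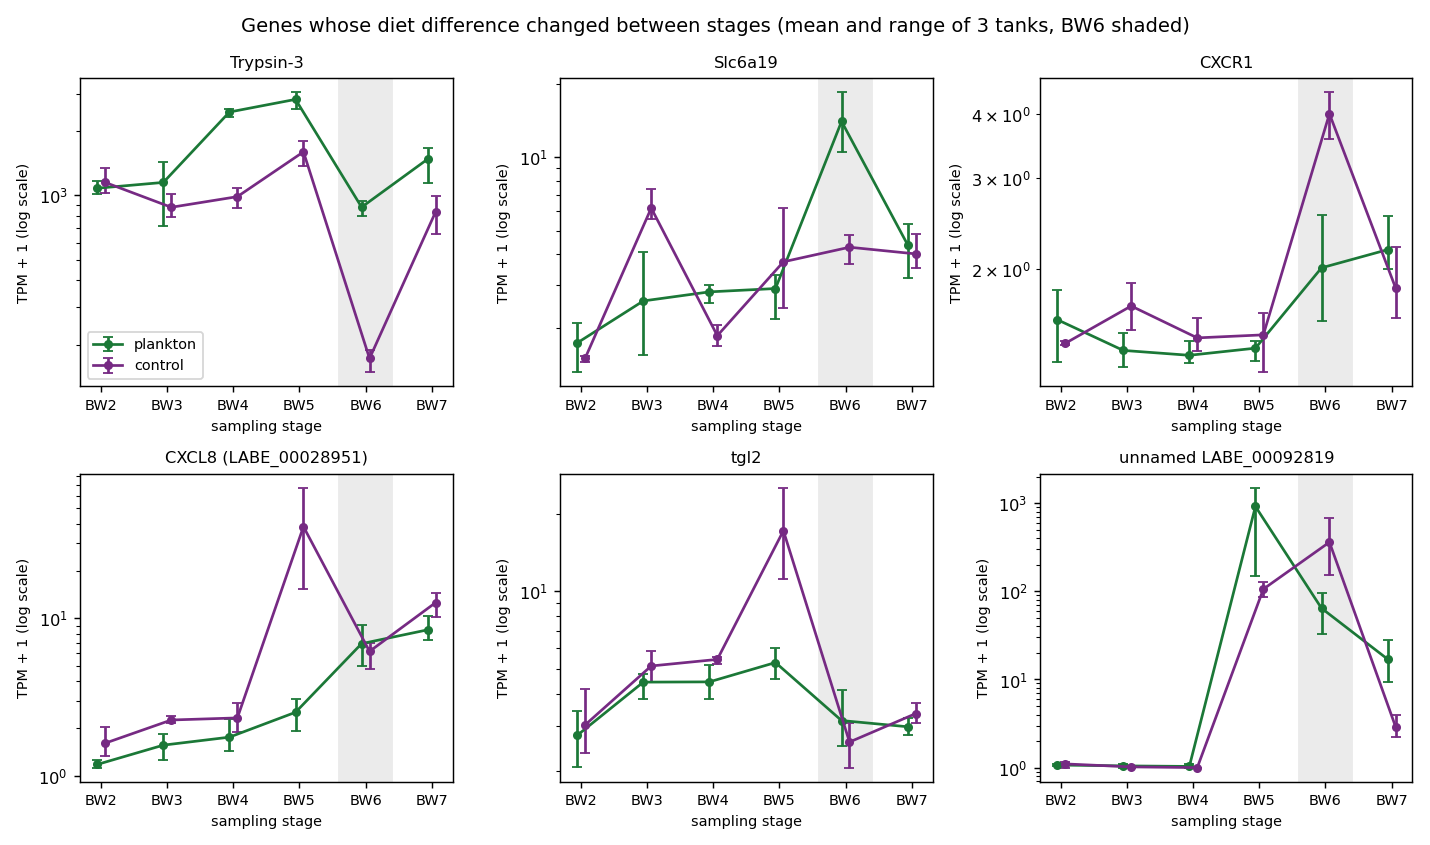
Level of 6 genes by sampling stage as TPM + 1 on a log axis, with BW6 shaded. Points are means of 3 tanks per diet and bars run from the lowest to the highest tank. Trypsin-3 (Fragment) and Slc6a19 separate the diets at BW6, and CXCL8 (LABE_00028951) and tgl2 separate them at BW5 and not at BW6.

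Other genes changed because a difference of BW5 was no longer seen. CXCL8 (LABE_00028951) was at 1.53 ± 0.58 TPM in plankton and 37.3 ± 26.8 TPM in control tanks at BW5, and at 5.91 ± 2.05 and 5.17 ± 1.24 TPM at BW6 (contrast 3.66 ± 0.48, adjusted p = 0.000288). The gene tgl2 (LABE_00053274) was at 4.28 ± 0.72 against 16.2 ± 7.33 TPM at BW5 and at 2.14 ± 0.87 against 1.59 ± 0.51 TPM at BW6 (1.88 ± 0.35, adjusted p = 0.0263). ML1136 (LABE_00043379) had a contrast of 2.15 ± 0.43 (adjusted p = 0.0422). The steepest downward contrasts were 5 genes that the table leaves unnamed, from -5.06 to -3.71. For LABE_00092819 the levels were 917 ± 697 against 105 ± 21.1 TPM at BW5 and 63.3 ± 31.4 against 360 ± 278 TPM at BW6, so the diet with the higher mean changed. At BW6 the tank B6 was the highest for this gene, at 677 TPM beside 251 and 153 TPM in B8 and B10, and most of that came from 1 of its pools, at 1220 TPM. The count of this contrast was 4 without B7, 7 without B8, 12 without B5 and 48 without B9.

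From BW6 to BW7, when all tanks stayed on dry feed, few differences changed detectably. The contrast called 5 genes (0.0227%), 4 upward and 1 downward, and 996 had an unadjusted p under 0.05. These 996 are fewer than a share of 0.05 of the genes tested. CXCR1 (LABE_00021493) was among the 5 called, at 1.01 ± 0.49 TPM in plankton and 3.00 ± 0.41 TPM in control tanks at BW6 and at 1.18 ± 0.31 and 0.84 ± 0.32 TPM at BW7 (1.28 ± 0.23, adjusted p = 0.022). The unnamed genes LABE_00092819, LABE_00061859 and LABE_00092820 had contrasts of 4.63 ± 0.70, 4.15 ± 0.71 and 4.24 ± 0.71. For Trypsin-3 (Fragment) the contrast was -1.69 ± 0.34 (adjusted p = 0.0706), so a smaller difference at BW7 than at BW6 was not called. The count of this contrast was 3 without B8, 8 without B5, B6 or B10, 9 without B7 and 11 without B9.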

How the data were processed

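Per the labels' protocols, total RNA of pooled whole larvae was extracted with QIAzol and messenger RNA enriched with oligo(dT) beads. The authors deposited TPM per gene and pool, with a sum of 1000000 in every column. Salmon and edgeR appear in the submitters' processing notes without version or role. Read depth cannot be recovered from TPM, and the test was therefore limma 3.58.1 with an intensity trend in R 4.3.3, on log2(TPM + 1) averaged over a tank's 2 pools. The fit held 41 libraries (36 tank libraries of BW2 to BW7 and 5 pools of BW0) in 13 stage and diet groups, with 28 residual degrees of freedom, and genes reaching 1 TPM in 3 or more libraries. Tables and figures used Python 3.11.15, numpy 2.4.6, pandas 2.3.3 and matplotlib 3.10.9. The fit was also run on simulated data in which a gene had the same spread in every group. That simulation could not test whether the stages share a spread.

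The members and the 37 lists (1951 genes by name) were chosen with earlier results of these data known, and names that matched a pattern but not its meaning were removed after the names were seen. Named genes are up to 12 of the steepest called and named genes per direction among those without overlap and averaging 5 TPM or more, up to 3 called per list in its main direction by p and 1 in the other, a fixed set of 20 looked up, and up to 5 per direction for each contrast between stages. Enzymes, lipases and liver genes beyond that rule were chosen after their values were seen. A tank keeps its number across stages, which pairs its libraries by the labels. Deviations of the same tank from its group at neighbouring stages correlated by -0.08 to 0.105 over 12 pairs. The labels do not say whether pools of a tank are separate groups of larvae, and tanks of a diet are the replicates. The alternatives were other pseudocounts, filters and scaling, other sets of libraries, single pools, blocks, an age term and leaving out each tank. A result on 1 called gene of the skin list is not reported here.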

Additional observations from a re-analysis of the deposited data

Results flagged for a closer look

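Among 194 gene and diet groups of 6 pools at BW6, 28 held a pool far from the other 5. A rate of about 1 in 20 by chance would need independent pools and genes. Here 2 pools share each tank and many flags come from the same pool, so no excess over chance can be read from the count. Many of the pools set apart were B6 R2, the second pool of the control tank B6. It held 338 TPM of Cpa1 beside 154 TPM in the next pool, 54 TPM of CEL beside 18.5 TPM, 393 TPM of hcea beside 169 TPM, 13 TPM of SHMT2 beside 5.74 TPM, and 14.6 and 8.96 TPM of the CYP2J2 copies beside 5.41 and 3.28 TPM. The same pool was high in the unnamed genes LABE_00092819 (1220 TPM beside 277), LABE_00061859 (1770 beside 242), LABE_00085684 (332 beside 108), LABE_00063806 (203 beside 40.9) and LABE_00092820 (1930 beside 608). The first pool of B6 was apart in chac1, at 251 TPM.

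Pools of the tanks sampled at 59 dph were apart in other genes. In B9 the first pool held 116 TPM of ectD, 452 TPM of FBXO32, 15 TPM of rrm2 (below the other pools) and 0.171 TPM of CHIT1 (below the other pools). Its second pool held 393 TPM of CELA2A (LABE_00061614), 6.01 TPM of ccdc58, 22.8 TPM of sst1 (LABE_00070203) and 20.6 TPM of ins (LABE_00045329). In B10 the first pool held 214 TPM of Gamma-crystallin M3 and 51.4 TPM of Cela2a, and the second 44.9 TPM of TRIAP1, 598 TPM of sst1 (LABE_00070451), 92.9 TPM of SCARB1 and 29.1 TPM of ins (LABE_00045329). At 58 dph a pool of B5 held 47.8 TPM of sst1 (LABE_00070451) and a pool of B7 4.54 TPM of Tnnt1.

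For some genes the limma contrast between stages was called. In the contrast with BW5, age, feed and earlier diet cannot be told apart. From BW5 to BW6 the difference between plankton and control tanks changed by 1.71 for Trypsin-3 (Fragment), 1.85 for Slc6a19 and 3.66 for CXCL8 (LABE_00028951). It changed by 2.15 for ML1136, 1.88 for tgl2 and -3.0 for Tnnt1. The unnamed genes changed by -5.06 (LABE_00092819), -4.84 (LABE_00061859), -4.79 (LABE_00085684), -4.58 (LABE_00063806) and -3.71 (LABE_00092820). From BW6 to BW7 the change was 1.28 for CXCR1 and 4.63, 4.15 and 4.24 for LABE_00092819, LABE_00061859 and LABE_00092820.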

How the results depend on the processing

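The 177 calls at BW6 (114 higher, 63 lower) were 117 with a pseudocount of 0.1 (40 lower) and 4 with the BW6 libraries alone (4 higher, 0 lower). They were 284 with each pool as a library in a tank and stage block (179 and 105). With the first pool of each tank they were 555 (303 and 252). With the second pool they were 121 (76 and 45), of which 73 were among the 177. Without the second pool of B9, left out for its likeness to the control pools, they were 352 (175 and 177). In the tanks of 58 dph they were 104 (67 and 37). A pseudocount of 5 gave 174 higher. Leaving out a tank gave 97 to 157 calls, 68 to 112 higher and 29 to 59 lower, lowest without B8. With the tank as replicate block 183 were called. The pancreas count of 27 was 2 with the BW6 libraries alone, 29 and 18 with the first and second pools, and 24 to 27 on leaving out a tank. The liver count of 17 was 0 with the BW6 libraries alone, 34 and 1 with the first and second pools, 4 at 58 dph, and 4 to 15 on leaving out a tank. The lens count of 9 was 0 with the BW6 libraries alone and 16 and 4 with the first and second pools. It was 1 without the second pool of B9, 1 at 58 dph, and 1 to 17 on leaving out a tank.

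The 22 calls of the BW5 to BW6 contrast were 12 and 36 with pseudocounts of 0.1 and 5, 10 without a filter, 14 with the tank as replicate block, 4 with the libraries of the 2 stages alone, and 4 to 48 on leaving out a tank. The 5 calls of the BW6 to BW7 contrast were 3 and 34 with those pseudocounts, 12 without a filter, 3 with the 5 TPM filter, 17 with size factors, 5 with the tank as replicate block, 0 with the libraries of the 2 stages alone, and 3 to 11 on leaving out a tank. The cause of these changes was not tested, apart from the fewer libraries that some settings hold by construction. No named gene that was called reversed its direction in any of the 21 alternatives. These refit the same libraries or a part of them, so a reversal was unlikely from the start. Of the 69 named genes that were called, 3 kept their result in all 21. The result was weaker for 66 with the BW6 libraries alone and for 42 in the tanks of 58 dph. It was weaker for 40 with the second pools and for 29 with a pseudocount of 0.1. The depth is unknown, and the pseudocount shrinks differences of genes near or below 1 TPM.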

Other observations

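Further groups were chosen after their values were seen and are given as descriptions. Proteases of the astacin family named after hatching enzymes (hcea, hceb and lce) had 4 of 9 tested copies called higher in plankton tanks, beside 0.518% of all genes tested. Their median difference was 1.56. The copy lce (LABE_00056493) was at 1060, 1310 and 1430 TPM in plankton tanks and at 410, 356 and 347 TPM in control tanks (1.92 ± 0.24, limma adjusted p = 2.31e-05). The copy hcea (LABE_00054983) was at 477, 642 and 851 TPM against 232, 159 and 163 TPM (1.96 ± 0.25, adjusted p = 2.54e-05). The ranges of the diets were separate for both copies, which for this hcea copy was a condition of a rule that named it. Another called copy, hcea (LABE_00056488), differed by 1.58 ± 0.39 (adjusted p = 0.0416) and lost its call without B6, B7, B8, B9 or B10.

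Genes that handle myo-inositol, an osmolyte and phospholipid precursor, were called in both directions, with a median of 0.00 over 9 genes. The degrading enzyme miox (LABE_00011792) was higher, at 49.1, 78.9 and 79.4 TPM against 35.1, 27.9 and 30.4 TPM (1.15 ± 0.29, adjusted p = 0.0462). IMPA1 (LABE_00015726), which makes free inositol, was lower, at 307, 278 and 212 TPM against 398, 405 and 422 TPM (-0.63 ± 0.16, adjusted p = 0.0464), as was the transporter SLC5A3. The calls of miox and IMPA1 were each lost without B6, B7, B8, B9 or B10, and that of SLC5A3 without B9.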
